A study of Mus musculus with 2 samples.

Results

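Cycling Vcan-positive cells are mononuclear phagocytes of RENCA kidney tumours that carried transcripts of the proliferation genes Mki67 and Top2a together with Vcan, the gene of the matrix proteoglycan versican. RENCA is a mouse kidney cancer line, and the tumours had been grown orthotopically, in the kidney, of BALB/c mice. There was 1 droplet single-cell RNA-seq library labelled SMYD3 knockdown and 1 labelled WT, and the series text describes the cells as sorted for CD45, a surface protein of white blood cells. The individual records instead give the cell type as epithelial, with no mention of sorting. The knockdown was made in the grafted cells, per the series text, so that the phagocytes come from the host in both libraries. Neither the age of the mice nor the number pooled into a library is given in the sources used here.

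Members were chosen by their UMI counts. A barcode was a member if it held at least 3000 UMIs (unique transcript molecules), at most 20% mitochondrial UMIs, at least 1 UMI of Csf1r (the receptor of the macrophage growth factor CSF1), at least 4 UMIs of Mki67 and Top2a together and at least 2 UMIs of Vcan. The rule found 893 cells among 19451 barcodes, of which 453 were in the library labelled SMYD3 knockdown and 440 in the library labelled WT. They were 893 of the 4992 Vcan-positive and 11517 Csf1r-positive cells that passed the first limits. Cells of the same rule with no Mki67 or Top2a UMI, 1600 in the knockdown-labelled library and 1473 in the WT-labelled library, are called non-cycling. Cycling cells with no Vcan UMI, 336 in the knockdown-labelled library and 326 in the WT-labelled library, were the most like population.

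Versican and fibronectin are products of monocytes and of young monocyte-derived macrophages, while resident macrophages typically express the complement C1q genes and the mannose receptor gene Mrc1. Blood monocytes are generally regarded as non-dividing, and division in tumour phagocytes is usually described in macrophages and under CSF1. Mki67 and Top2a are transcribed mainly in S, G2 and M phase, and their promoters, like those of many mitotic genes, are repressed in resting cells by a complex that binds the CHR element, while many S phase genes are controlled through E2F sites.

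The promoter stretches below were chosen after the matches were known, to show how these elements lie before cell cycle genes, and Top2a is also part of the rule. They are the 120 bases before the RefSeq start (GRCm38.p6), written 5′ to 3′ on the strand of the gene. Capitals mark the CHR (TTTGAA or TTCGAA, in reverse TTCAAA or TTCGAA) and the CCAAT box (CCAAT, in reverse ATTGG), and in Mcm6 also the E2F site (TTTGGCGC, TTTCGCGC or TTTCCCGC, either strand). Matches may overlap, as the first E2F run of Mcm6 does.
Top2a, chr11:99024190-99024309, minus strand: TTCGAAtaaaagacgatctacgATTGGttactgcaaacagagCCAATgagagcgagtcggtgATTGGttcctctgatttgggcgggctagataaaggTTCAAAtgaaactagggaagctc
Ube2c, chr2:164769809-164769928, plus strand: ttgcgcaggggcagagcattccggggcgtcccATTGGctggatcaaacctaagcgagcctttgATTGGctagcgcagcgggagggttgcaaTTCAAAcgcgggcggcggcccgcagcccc
Cdk1, chr10:69352913-69353032, minus strand: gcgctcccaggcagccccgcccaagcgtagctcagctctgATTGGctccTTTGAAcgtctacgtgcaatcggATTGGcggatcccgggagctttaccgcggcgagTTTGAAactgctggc
Cdc20, chr4:118437344-118437463, minus strand: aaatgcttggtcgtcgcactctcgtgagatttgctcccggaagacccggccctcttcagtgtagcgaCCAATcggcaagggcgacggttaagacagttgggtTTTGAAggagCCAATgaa
Mcm6, chr1:128359706-128359825, minus strand: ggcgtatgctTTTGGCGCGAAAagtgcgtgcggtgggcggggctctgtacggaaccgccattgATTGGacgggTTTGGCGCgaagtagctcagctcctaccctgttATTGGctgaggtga
Over windows from 250 bases before to 50 bases after the start, 72.0% of 50 windows of G2 and M phase genes held a CHR, against 18.2% of 33 windows of S phase genes and 19.0% of all 32619 windows. A CHR and a CCAAT box together stood in 60.0% of the G2 and M phase windows, in 12.1% of the S phase windows and in 7.55% of all windows. An E2F site stood in 6.0%, 36.4% and 1.86% of the same windows. The windows belonged to 45 of 51 listed G2 and M phase genes and 30 of 42 listed S phase genes. Within the 120 bases not every cell cycle gene held them. Of genes farthest higher in the members, Nusap1 and Birc5 held neither a CHR, a CCAAT box nor an E2F site there, and Cenpf and Rrm2 held a CCAAT box alone. Ccnb1, Ccnb2, Plk1 and Aurka held CCAAT boxes without a CHR, and Pcna and Rrm1 no E2F site. These matches describe letters in a window and not bound sites.

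The counts of Mki67, Top2a, Vcan and Csf1r by which the cells were selected are given here as a description. The median member held 9 Mki67 UMIs in the knockdown-labelled library and 10 in the WT-labelled library, and 9 Top2a UMIs in both. Vcan had a median of 9 UMIs in members of the knockdown-labelled library and 10 in those of the WT-labelled library, with highest values of 77 and 92. Many cells lay near the limits. Just inside, with 4 Mki67 and Top2a UMIs, were 42 cells of the knockdown-labelled library and 47 of the WT-labelled library, and just outside, with 3, were 65 and 59. For Vcan, 56 (knockdown label) and 43 (WT label) cycling cells had 2 UMIs, 102 and 74 had 1 UMI, and 213 and 212 had over 10. In all, 176 cycling cells with 1 Vcan UMI and 1026 Vcan-positive cells with 1 to 3 Mki67 and Top2a UMIs stayed outside both the members and the sets they are compared with.

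Members were large in RNA content. Their median was 22490 UMIs in the knockdown-labelled library and 21748.5 in the WT-labelled library, against 11511 and 11894 in non-cycling Vcan-positive cells, which is a ratio of 1.95 and 1.83. The median number of genes was 4891 (knockdown label) and 4929.5 (WT label) in members and 3240 and 3396 in non-cycling cells. The rule favours deep cells, since a UMI minimum is reached sooner by a cell with more UMIs, so the part of depth and that of the cell cycle cannot be told apart in these ratios. Doublet scores among the highest of the library were held by 19.6% of members of the knockdown-labelled library and 15.9% of the WT-labelled library, against 10.0% and 10.6% of non-cycling cells. The part of doublets in the results was not tested beyond the values without those cells.

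Over all barcodes the libraries held 95803321 UMIs (knockdown label) and 91523767 UMIs (WT label), and the members' summed profiles rest on 10552703 and 9947363 of them. Levels are CPM, the UMIs of a gene scaled to a fixed total over the summed cells of a set. With 1 library per label nothing was tested, and intervals are at 95% and cover counting error only. Of 22 barcode sequences present in both libraries, 1 belonged to a member in each library. Smyd3 had 15.1 CPM (159 UMIs) in members of the knockdown-labelled library and 11.96 CPM (119 UMIs) in those of the WT-labelled library, a ratio of 1.26 (0.987 to 1.61). As host cells they do not check the knockdown, and the libraries are called by their labels.

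The markers of the cells that the rule did not use were present. H1f5, a linker histone gene that is transcribed in S phase, had 178 CPM in members of the knockdown-labelled library and 205 CPM in those of the WT-labelled library, against 8.12 and 9.11 CPM in non-cycling cells. That is 21.96 (18.7 to 26.0) and 22.5 (19.2 to 26.5) times as much. Fn1, the fibronectin gene, had 2344 CPM in members of the knockdown-labelled library and 2803 CPM in those of the WT-labelled library, against 734 and 699 CPM in cycling Vcan-zero cells, a ratio of 3.19 and 4.01. Non-cycling Vcan-positive cells had 3065 and 3456 CPM of Fn1, above the members in both libraries. H1f5 followed the cell cycle and Fn1 followed Vcan.

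**Figure D1:**
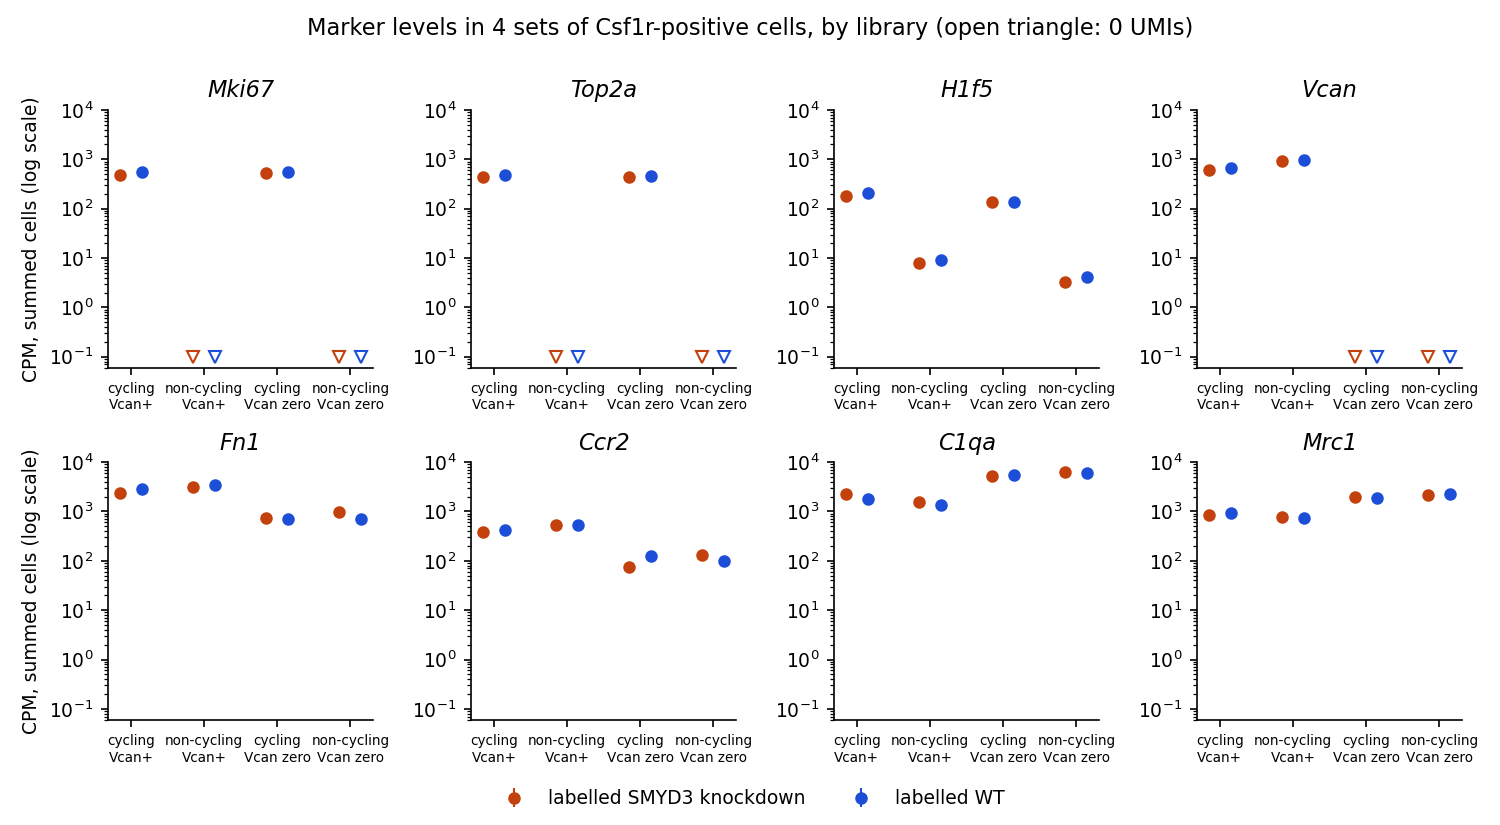
CPM of summed cells (log axis) for 8 genes in 4 sets of Csf1r-positive cells, with 1 point per library and counting intervals smaller than most points; open triangles mark 0 UMIs, which the rule itself sets for Mki67, Top2a and Vcan. H1f5 is at 178 and 205 CPM in cycling Vcan-positive cells against 8.12 and 9.11 CPM in non-cycling ones, while Fn1 and Ccr2 separate Vcan-positive from Vcan-zero cells.

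The description as monocyte-derived was met in part. Ccr2, the receptor that draws monocytes out of the bone marrow, had 386 CPM in members of the knockdown-labelled library and 419 CPM in those of the WT-labelled library, against 76.3 and 123 CPM in cycling Vcan-zero cells. Ly6c2, the defining gene of classical blood monocytes, was nearly absent. It had 4.45 CPM (knockdown label) and 3.42 CPM (WT label) in members, against 21.96 and 16.1 CPM in non-cycling Vcan-positive cells. Without thinning the cells to 1 depth, a UMI was found in 3.09% of members (knockdown label) and 3.64% (WT label). Among 44 (knockdown label) and 54 (WT label) T cells of the same libraries, a class that itself expresses Ly6c2 and so is no background, 25% and 25.9% had a UMI. The progenitor genes Mpo and Elane, of neutrophil and monocyte precursors, had 1 UMI each over all members, while the related Prtn3 had 82 UMIs in the knockdown-labelled library and 21 in the WT-labelled library. Members are therefore called here by the rule, as cycling Vcan-positive cells.

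Markers of other cells differed in level. Mast cell and basophil markers (6 genes) had 0 UMIs in members of both libraries. The 10 T cell markers summed to 2.84 CPM in the knockdown-labelled library (1 gene at 0) and 12.1 CPM in the WT-labelled library (none at 0), and 1 and 2 members held 3 or more Cd3 UMIs. Fibroblast markers (7 genes) summed to 1.71 CPM in the knockdown-labelled library (2 genes at 0) and 25.6 CPM in the WT-labelled library (1 gene at 0), with the collagen gene Col1a1 at 0.190 and 8.54 CPM, and 1 member, in the WT-labelled library, held 3 or more UMIs of Col1a1 and Col3a1. The markers of NK cells (8 genes), of B and plasma cells (7 genes) and of erythroid cells (6 genes) each summed to under 5 CPM in both libraries, and those of endothelial cells to 6.16 and 5.93 CPM. A sort for CD45 would remove fibroblasts, endothelial and tumour cells, and the part of such RNA in the results was not tested. Tumour and epithelial markers summed to 92.9 CPM (knockdown label) and 85.8 CPM (WT label), of which the cadherin gene Cdh1 gave 82.4 and 65.6 CPM and the keratin gene Krt8 0.853 and 4.72 CPM. The neutrophil list of 13 genes summed to 195 CPM (knockdown label) and 185 CPM (WT label) with 2 and 3 genes at 0, and 15 members of each library held 20 or more UMIs of S100a8 and S100a9. Only 1 of the dendritic cell lists summed highest among them in both libraries. This was the list of conventional type 1 dendritic cells (6 genes), at 387 CPM (knockdown label) and 422 CPM (WT label), none at 0. The lipid hydrolase gene Naaa gave 334 and 354 CPM of it, while the defining Xcr1 had 0.758 and 1.91 CPM and Clec9a 0.284 and 0.402 CPM. The list of plasmacytoid dendritic cells (6 genes) summed to 209 CPM with 2 genes at 0 (knockdown label) and 178 CPM with 1 gene at 0 (WT label), of which the interferon-induced Bst2 gave 144 and 99.2 CPM, while the defining Siglech had 0 and 2 UMIs. In cycling Vcan-zero cells these dendritic cell lists summed to 336 and 352 CPM and to 326 and 321 CPM.

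The first comparison set members against non-cycling Vcan-positive cells within each library, and describes what goes with division in these phagocytes. The rule used this contrast, so its values are a description. Of 7933 genes tested, each reaching 20 UMIs and 10 CPM in one of the sets, 605 (7.63%) were at least 1.5-fold higher in both libraries and 115 (1.45%) at least 1.5-fold lower on the log2(CPM + 5) scale. Genes were named by rank of difference. The 3 lists of cell cycle genes took 1.23% of members' UMIs in the knockdown-labelled library and 1.22% in the WT-labelled library, against 0.222% and 0.215% in non-cycling cells.

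Genes of mitosis stood farthest apart. Ube2c, which charges the anaphase-promoting complex with ubiquitin, had 469 CPM in members and 6.94 CPM in non-cycling cells of the knockdown-labelled library, and 449.8 CPM against 7.36 CPM in the WT-labelled library. Nusap1, a spindle protein gene, had 144 CPM against 0.766 CPM in the knockdown-labelled library and 169 CPM against 0.764 CPM in the WT-labelled library. Prc1, which bundles the central spindle, was 97.7 times as high in members of the knockdown-labelled library and 76.1 times in those of the WT-labelled library. Each of these genes was close to 0 in the non-cycling cells of both libraries. The kinetochore gene Cenpf was 91.6 (knockdown label) and 112 times as high (WT label), the cyclin gene Ccna2 145 and 91.9 times, the survivin gene Birc5 34.1 and 41.7 times, and the spindle assembly factor gene Tpx2 60.7 and 57.0 times. Cdk1, the mitotic kinase whose promoter is shown above, had 237 CPM (knockdown label) and 200.1 CPM (WT label) in members, against 7.92 and 6.33 CPM in non-cycling cells. Cdc20, the activator of the anaphase-promoting complex, had 119 CPM (knockdown label) and 101 CPM (WT label) in members, against 2.71 and 2.73 CPM in non-cycling cells.

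Genes of DNA synthesis were higher too. Rrm2, a subunit of ribonucleotide reductase, had 203 CPM in members against 4.09 CPM in non-cycling cells of the knockdown-labelled library, and 170.2 CPM against 2.56 CPM in the WT-labelled library. Mcm6, of the replicative helicase, had 73.0 CPM (knockdown label) and 65.6 CPM (WT label) in members and 10.9 and 8.45 CPM in non-cycling cells, a ratio of 6.68 and 7.76. Pcna, the sliding clamp that also serves DNA repair, had the smaller ratio of 3.32 (knockdown label) and 3.13 (WT label). Of the S phase list, 41 of 42 genes were measured, 40 were 1.5-fold higher in both libraries and none lower, with a median log2 difference of 1.98. For the G2 and M phase list the count was 49 of 49 measured with a median of 3.06, and for the replication-dependent histones 13 of 18 measured with a median of 1.43. The median over all genes tested was 0.06. Counts of histone genes are uncertain because many are close copies. Outside the cell cycle lists, the genes farthest higher were of the same kind and included Pclaf, which binds Pcna, the mitotic kinesin gene Kif15, the kinetochore gene Knl1, the cytokinesis gene Racgap1, the mitotic kinase gene Pbk and the histone chaperone gene Asf1b.

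Genes that time entry into S phase were divided. Cyclin E1 (Ccne1) had 40.3 and 38.8 CPM in members, against 4.95 and 4.85 CPM in non-cycling cells, and the transcription factor genes E2f1 and E2f2 were among the 8 of 27 measured genes of this list that were 1.5-fold higher in both libraries. The D-type cyclins, which answer growth factors, did not share this. Ccnd1 had 195 CPM against 171 CPM in the knockdown-labelled library and 169 CPM against 162 CPM in the WT-labelled library, and Ccnd3 had 114 CPM in both sets of the first and 112 CPM in both sets of the second. Ccnd2 was lower, with 72.8 CPM (knockdown label) and 80.5 CPM (WT label) in members against 119 and 166 CPM in non-cycling cells, and so was Mxd1, a Myc antagonist gene, with 36.6 and 49.0 CPM against 76.7 and 92.3 CPM. Inhibitors of cyclin D kinases were higher in the dividing cells, Cdkn2c with 84.4 CPM (knockdown label) and 83.5 CPM (WT label) in members against 6.43 and 6.38 CPM in non-cycling cells and Cdkn2d with 112 and 115 CPM against 31.6 and 33.1 CPM. The p21 gene Cdkn1a had 324 CPM (knockdown label) and 399 CPM (WT label) in members and 364 and 392 CPM in non-cycling cells.

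Growth and nucleotide metabolism went partly along. Of 25 measured genes of nucleotide synthesis, 10 were 1.5-fold higher in both libraries, among them the thymidylate synthase gene Tyms with 137 and 105 CPM in members against 16.5 and 14.1 CPM in non-cycling cells and the thymidine kinase gene Tk1 with 59.9 and 55.1 CPM against 1.58 and 2.46 CPM. The GMP-pathway gene Impdh2 had 110 CPM (knockdown label) and 92.2 CPM (WT label) in members, against 58.4 and 47.0 CPM in non-cycling cells, while its paralogue Impdh1 was lower, with 16.8 and 13.6 CPM against 32.6 and 27.7 CPM. Of 28 ribosome biogenesis and Myc target genes only Ran, the nuclear transport GTPase, passed 1.5-fold, and the list's median was 0.18. Of 29 SREBP target genes, which serve cholesterol and fatty acid synthesis, only the desaturase gene Fads1 did so, with 36.4 CPM (knockdown label) and 30.6 CPM (WT label) in members against 20.5 and 16.9 CPM in non-cycling cells, and the median was -0.01. Myc itself had 84.1 CPM (knockdown label) and 67.6 CPM (WT label) in members and 96.9 and 70.5 CPM in non-cycling cells.

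Genes of classical monocytes, inflammation and hypoxia lay on the lower side. Plac8, a gene of newly arrived monocytes, stood farthest lower, with 58.8 CPM in members against 269.6 CPM in non-cycling cells of the knockdown-labelled library and 53.0 CPM against 184 CPM in the WT-labelled library. Thbs1, the thrombospondin gene, set members against non-cycling cells at 206 against 441 CPM (knockdown label) and 131 against 379 CPM (WT label), and the neutrophil-attracting chemokine gene Cxcl3 had 132 against 338 CPM (knockdown label) and 62.0 against 195 CPM (WT label). Of 23 measured classical monocyte genes 6 were 1.5-fold lower and none higher, of 14 inflammatory genes 6 were lower and none higher, and of 25 hypoxia and glycolysis genes 5 were lower and none higher. Vegfa, the angiogenic growth factor gene, had 11.3 CPM (knockdown label) and 13.2 CPM (WT label) in members against 44.9 and 52.3 CPM in non-cycling cells. The lipid droplet gene Hilpda and the oxygen-sensing hydroxylase gene Egln3, both targets of the hypoxia factors, had ratios of 0.416 and 0.395 in the knockdown-labelled library and of 0.448 and 0.331 in the WT-labelled library. The MHC class II list had 4 of 14 genes lower, with H2-Ab1, a class II chain, at 459.7 CPM (knockdown label) and 513 CPM (WT label) in members against 817 and 829.5 CPM in non-cycling cells, and the interferon response list 6 of 19. Before any limit on depth, the tissue macrophage list moved the other way, with 3 of 24 genes higher, 1 lower and a median of 0.22. The remaining genes named by rank were the uridine phosphorylase gene Upp1, the interleukin-7 receptor gene Il7r, Slfn5, the protease gene Mmp19 and the activin subunit gene Inhba.

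The compared sets differed in C1q content as well. Cells with at least 2000 CPM of the macrophage genes C1qa, C1qb and C1qc together, an upper range set after the values were seen, were 49.9% (knockdown label) and 41.4% (WT label) of members against 26.4% and 25.3% of non-cycling cells. Within the upper range 72 of 7914 genes (0.91%) were 1.5-fold lower in both libraries, and within the lower range 110 of 7855 (1.4%). The classical monocyte list had 4 of 22 genes lower in the upper range and 7 of 23 in the lower range, the inflammatory list 2 of 13 and 8 of 14, the hypoxia list 3 of 25 in each, the MHC class II list 3 of 13 and 0 of 15, and the interferon response list 8 of 21 and 2 of 18. The tissue macrophage list had medians of -0.04 in the upper and -0.22 in the lower range. Members had 0.527 (knockdown label) and 0.713 times (WT label) the Plac8 level of non-cycling cells in the upper range, and 0.182 and 0.194 times in the lower range. Rsad2, an antiviral interferon target, was at 0.147 (knockdown label) and 0.559 times (WT label) in the upper range, and in the lower range at 1.42 times with the knockdown label and 0.270 times with the WT label, so that its direction was not shared.

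A limit on depth changed this lower side and the C1q content together. With at least 15000 UMIs required on both sides, an alternative chosen after seeing the data, 399 (knockdown label) and 366 (WT label) cycling cells faced 422 and 406 non-cycling cells, and medians of 23319 and 23200.5 UMIs faced 18311 and 17716. Of these cells 51.4% (knockdown label) and 42.9% (WT label) of the cycling and 55.9% and 44.6% of the non-cycling ones were in the upper C1q range. The genes 1.5-fold lower numbered 71 in place of 115 (1.45% of 7933). Under the limit, 62 of 7896 genes tested were lower within the upper C1q range and 87 of 7862 within the lower range. The classical monocyte list then had 1 of 22 genes lower, the MHC class II list 0 of 13, the inflammatory list 3 of 14 and the hypoxia list 3 of 25. The tissue macrophage list turned round, with 1 of 24 genes higher, 3 lower and a median of -0.21. Plac8 had 58.0 CPM in members against 87.8 CPM in non-cycling cells of the knockdown-labelled library and 53.0 CPM against 81.7 CPM in the WT-labelled library, ratios of 0.661 and 0.648 that no longer pass the fold on the log2(CPM + 5) scale. Within the upper C1q range the Plac8 ratio was then 0.570 (knockdown label) and 0.715 (WT label), and within the lower range 0.772 and 0.578, nearer to 1 than the lower range's ratios without the limit. Vegfa had ratios of 0.537 (knockdown label) and 0.438 (WT label) in place of 0.251 and 0.252, and Hilpda 0.521 and 0.480. The interferon response list had 5 of 19 genes lower, with Isg15, a ubiquitin-like protein gene, at 0.556 (knockdown label) and 0.512 (WT label). The S phase list had 41 of 42 genes higher and the G2 and M phase list 49 of 49 under the same limit.

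**Figure D2:**
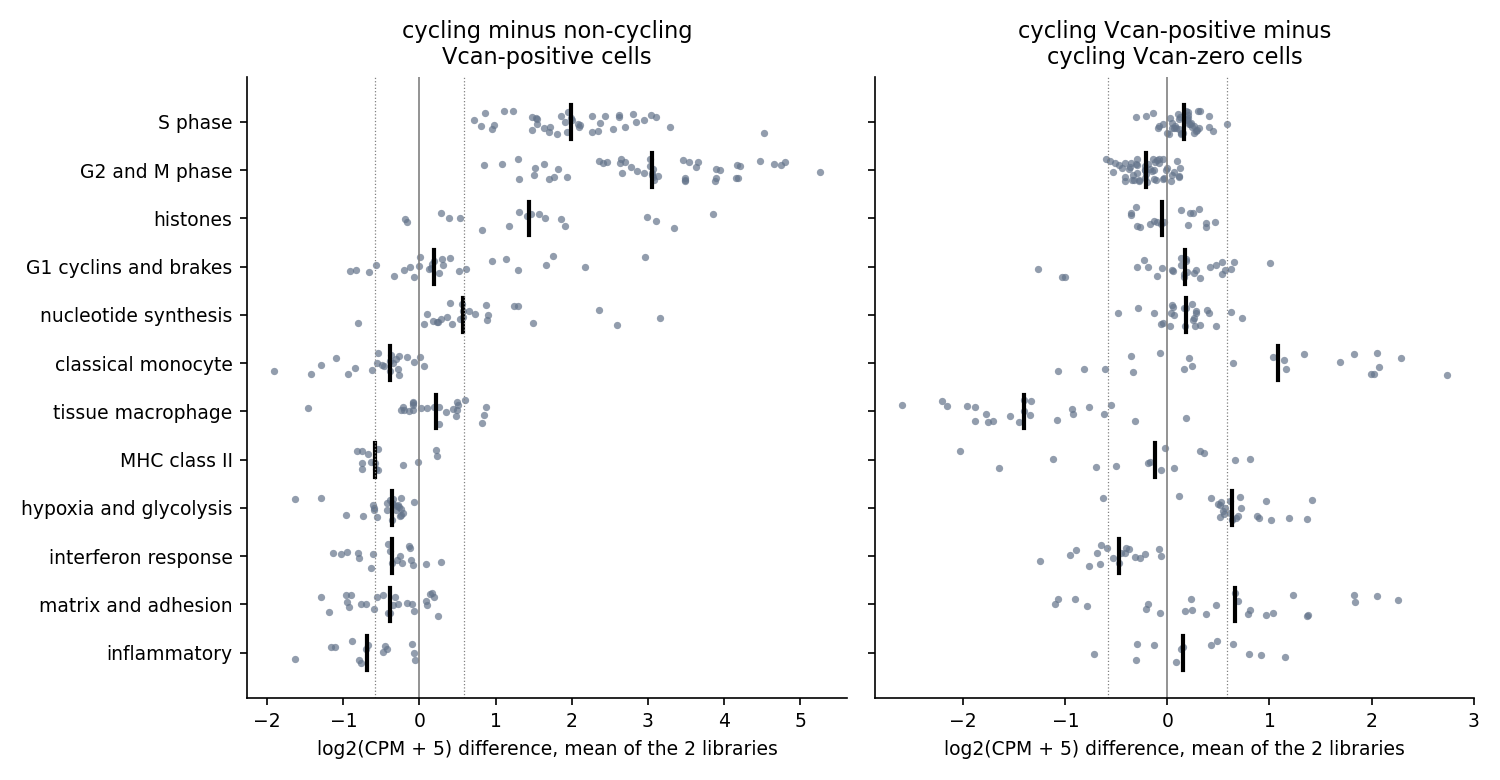
Log2(CPM + 5) difference (mean over the 2 libraries) of each measured gene in 12 lists, left for cycling minus non-cycling Vcan-positive cells and right for cycling Vcan-positive minus cycling Vcan-zero cells; bars are medians and dotted lines 1.5-fold. On the left the G2 and M phase list lies highest, at a median of 3.06; on the right the cell cycle lists lie near 0 while the tissue macrophage list has a median of -1.41 and the classical monocyte list one of 1.09.

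Within each library most members held more G2 and M than S phase transcripts. After each cell was thinned to 3000 UMIs and Mki67 and Top2a were left out, 333 of 453 members of the knockdown-labelled library (73.5%, 69.2 to 77.5) and 339 of 440 of the WT-labelled library (77.0%, 72.8 to 80.9) did so. Without thinning the shares were 74.4% (knockdown label) and 76.6% (WT label). The difference of -3.54 percentage points had an interval of -9.16 to 2.13, which covers counting error between these libraries only. Among cycling Vcan-zero cells the shares were 75.9% (knockdown label) and 79.4% (WT label). Since Mki67 and Top2a themselves are more abundant in G2 and M, the rule favours these phases, and the share does not estimate phase lengths. The call also compared plain sums of 2 lists, without scaling for their unlike levels. In members the G2 and M phase list summed to 7760 CPM (knockdown label) and 7589 CPM (WT label), and the S phase list to 3191 and 3069 CPM. How far this tilts the call towards G2 and M was not tested.

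Mitotic cyclin and helicase genes separated the phases, and histone genes did not do so in the same way. Ccnb2, a mitotic cyclin gene, had 183 CPM in the G2 and M phase cells of the knockdown-labelled library and 199 CPM in those of the WT-labelled library, against 12.9 and 23.8 CPM in the S phase cells. Mcm6 had 39.5 CPM (knockdown label) and 39.4 CPM (WT label) in G2 and M phase cells and 173 and 159 CPM in S phase cells. These genes belong to the lists that set the phase, so that the split is a description. The histone genes given next were higher in the cells called G2 and M phase, although H1f5 is transcribed in S phase. The phase names are therefore those of the call alone, and no timing of histone genes can be read from it. H2ac8 had 137 CPM (knockdown label) and 195 CPM (WT label) in G2 and M phase cells against 76.3 and 97.9 CPM in S phase cells, H4c4 110 and 132 CPM against 48.9 and 44.6 CPM, and H1f5 188 and 233 CPM against 147 and 105 CPM. Of the genes outside the lists, Vcan had 581 CPM (knockdown label) and 645 CPM (WT label) in G2 and M phase cells against 686 and 719.5 CPM in S phase cells, and Fn1 had 2349 and 2826 CPM against 2299.8 and 2668 CPM. Ccr2 had 390.3 CPM (knockdown label) and 446 CPM (WT label) in G2 and M phase cells against 377 and 326 CPM in S phase cells. Ccnd1 was lower in G2 and M phase cells, with 155 CPM (knockdown label) and 140.1 CPM (WT label) against 309 and 273 CPM in S phase cells. Vcan, Fn1 and Ccr2 thus lay within 1.5-fold between the phases in both libraries.

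The second comparison set members against cycling Vcan-zero cells and asks what the Vcan-positive cells carry besides division. Vcan chose the sets, so this too is a description. Of 8056 genes tested 274 (3.4%) were 1.5-fold higher in both libraries and 334 (4.15%) lower. None of 42 S phase, 50 G2 and M phase or measured histone genes passed 1.5-fold either way in both libraries, with list medians of 0.17 for S phase and -0.21 for G2 and M phase.

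Monocyte genes were higher and macrophage genes lower in the Vcan-positive cells. Hp, the haptoglobin gene, had 181 CPM in members of the knockdown-labelled library and 191 CPM in those of the WT-labelled library, against 20.4 and 27.2 CPM in cycling Vcan-zero cells. S100a4, a calcium-binding protein gene, had 872 CPM (knockdown label) and 754 CPM (WT label) in members against 184 and 207 CPM in Vcan-zero cells, and Chil3, the chitinase-like protein gene of mouse monocytes, had 358 and 228 CPM against 54.8 and 75.1 CPM. Of 22 measured classical monocyte genes 13 were higher, and Plac8 and F13a1 were lower. F13a1, the coagulation factor XIII subunit gene, had 589 CPM (knockdown label) and 580.4 CPM (WT label) in members against 1181 and 1294 CPM in Vcan-zero cells, so these members of the monocyte list did not follow the rest. Also among the genes farthest higher were the homeobox gene Hopx, with 206 CPM (knockdown label) and 199.9 CPM (WT label) in members against 25.8 and 35.1 CPM in Vcan-zero cells, Wfdc21, the collagenase gene Mmp8 and the carbonic anhydrase gene Car4.

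Of 23 measured tissue macrophage genes 19 were 1.5-fold lower in members and none higher, with a median of -1.41. C1qa had 2236 CPM (knockdown label) and 1831 CPM (WT label) in members against 5337 and 5377 CPM in cycling Vcan-zero cells, and Mrc1 had 854 and 951 CPM against 1931 and 1894 CPM. Vsig4, a complement receptor gene of resident macrophages, had 17.5 CPM (knockdown label) and 9.95 CPM (WT label) in members against 110.5 and 104 CPM in Vcan-zero cells, the adhesion molecule gene Vcam1 28.4 and 36.0 CPM against 187 and 258 CPM, and Ms4a7 was at 0.198 and 0.188 times the Vcan-zero level. The chemokine genes Ccl8 and Ccl17 were lower as well, as were Cp, the ceruloplasmin gene, Asgr2, a lectin gene, Tmem176a, Tmem176b and Smagp. In metabolism the direction turned. Of 25 hypoxia and glycolysis genes 11 were higher and none lower, with the glucose transporter gene Slc2a1 at 167 CPM (knockdown label) and 177 CPM (WT label) in members against 82.5 and 88.4 CPM, and 5 of 29 SREBP targets were higher and none lower. Cdkn2c, higher in cycling than in non-cycling cells, was lower than in the Vcan-zero ones, at 84.4 CPM (knockdown label) and 83.5 CPM (WT label) in members against 174 and 181 CPM.

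For a small set of genes the difference between cycling and non-cycling cells was itself unlike in Vcan-positive and Vcan-zero cells. By more than 1.5-fold and in the same direction in both libraries, this held for 48 of 7654 genes, and it was not tested. Plac8 in members was 0.232 (knockdown label) and 0.306 times (WT label) its level in non-cycling Vcan-positive cells on the log2(CPM + 5) scale, whereas cycling Vcan-zero cells had 0.776 and 0.708 times the level of non-cycling Vcan-zero cells. With at least 15000 UMIs on both sides, the Plac8 ratio of CPM in Vcan-positive cells was nearer to 1. Within the upper C1q range it was then 0.570 (knockdown label) and 0.715 (WT label), and within the lower range 0.772 and 0.578. No Vcan-zero ratio is given under that limit. On the log2(CPM + 5) scale, the fractalkine receptor gene Cx3cr1 was 1.99 (knockdown label) and 1.69 times as high (WT label) with division in Vcan-positive cells. In Vcan-zero cells it was at 0.986 and 1.02 times. Lyve1, a hyaluronan receptor gene of perivascular macrophages, was 1.52 (knockdown label) and 2.15 times as high (WT label) in Vcan-positive cells on that scale. In Vcan-zero cells it was at 0.905 and 1.05 times. The Vcan-positive sets differed in C1q content, as given above, while 89.6% (knockdown label) and 83.7% (WT label) of cycling and 87.3% and 85.9% of non-cycling Vcan-zero cells were in the upper C1q range. The values within the C1q ranges are plain ratios of CPM, so they are not on the scale of the whole-set values. Within the upper range of the Vcan-positive cells Lyve1 was 1.11 (knockdown label) and 1.68 times as high (WT label) in members as in non-cycling cells. Within the lower range, where no set was above 6.29 CPM, it was at 0.652 and 0.908 times. Cx3cr1 was 1.54 (knockdown label) and 1.35 times as high (WT label) in the upper range, and 2.39 and 2.04 times in the lower range. With at least 15000 UMIs on both sides, Lyve1 in the upper range was at 0.924 (knockdown label) and 1.60 times (WT label). Its direction there was then not shared. Under the same limit Cx3cr1 was 1.59 (knockdown label) and 1.41 times as high (WT label) in the upper range, and 2.10 and 2.34 times in the lower range. These genes were singled out after their values were seen, and the parts of C1q content and of depth in their differences were not tested.

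The members were not of 1 kind in C1q. The summed level of C1qa, C1qb and C1qc per cell fell into a lower and an upper range with few cells between, and a limit of 2000 CPM was set after this was seen. At or above it were 226 of 453 members of the knockdown-labelled library (49.9%, 45.2 to 54.6) and 182 of 440 of the WT-labelled library (41.4%, 36.7 to 46.1), a difference of 8.53 percentage points (1.99 to 15.0). Between 1000 and 4000 CPM lay 46 members (knockdown label) and 58 members (WT label). The upper range summed to 8922 CPM (knockdown label) and 8353 CPM (WT label) of C1q and the lower range to 303 and 377 CPM, while T cells, which do not make C1q, had 493 and 593 CPM at median depths of 3630.5 and 4071.5 UMIs. Per cell, T cells held 2.20 (knockdown label) and 3.44 C1q UMIs (WT label), and members of the lower range, at median depths of 20637 (knockdown label) and 20243.5 UMIs (WT label), held 6.52 and 7.99. Lower-range members thus lay below the T cells in CPM and above them in UMIs per cell, and free RNA and weak C1q expression cannot be told apart there. Among cycling Vcan-zero cells 89.6% (knockdown label) and 83.7% (WT label) were in the upper range.

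**Figure D3:**
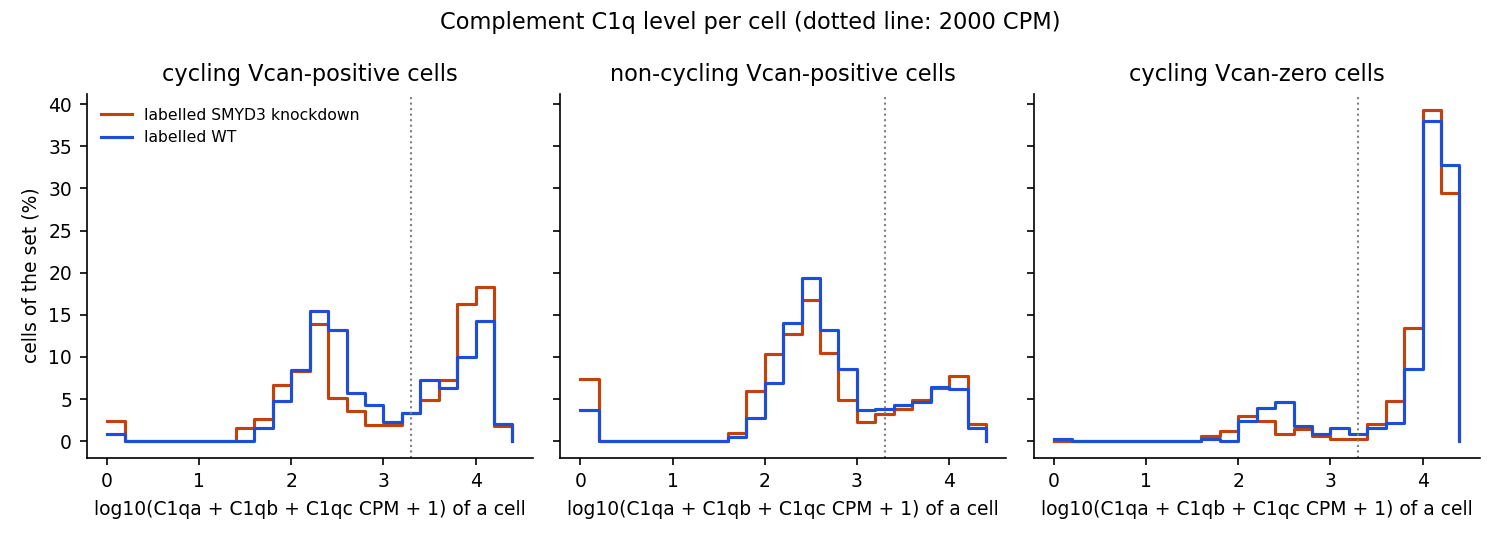
Share of cells (%) by the log10 of their summed C1qa, C1qb and C1qc CPM plus 1, for 3 sets of cells and both libraries; the dotted line marks 2000 CPM. Cycling Vcan-positive cells fall on both sides, with 49.9% (knockdown label) and 41.4% (WT label) at or above the line, whereas 89.6% and 83.7% of cycling Vcan-zero cells lie there.

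The ranges differed beyond the genes that made them. Vcan had 319 CPM in the upper range and 948 CPM in the lower range of the knockdown-labelled library, and 359.8 CPM against 901 CPM in the WT-labelled library. Ccr2 had, upper against lower range, 236 CPM against 561 CPM (knockdown label) and 247 CPM against 559 CPM (WT label). In the median cell Ccr2 was 130.2 CPM in the upper and 509 CPM in the lower range of the knockdown-labelled library, and 135 CPM against 468 CPM in the WT-labelled library. Chil3, of the classical monocyte list, and Cd24a, of none of the monocyte lists used here, lay on the same side, lower in the upper range. Chil3 had 81.0 CPM against 681 CPM (knockdown label) and 80.7 CPM against 349 CPM (WT label). Macrophage genes lay on the other, higher in the upper range. Apoe had 5525 CPM against 758 CPM (knockdown label) and 5817 CPM against 734 CPM (WT label), the transcription factor gene Maf 723 CPM against 103 CPM (knockdown label) and 917 CPM against 143 CPM (WT label), and Gas6, whose product bridges dying cells to phagocytes, 198 CPM against 7.18 CPM (knockdown label) and 203 CPM against 7.32 CPM (WT label). Mki67 differed less, with 463 CPM against 521 CPM (knockdown label) and 475 CPM against 613 CPM (WT label), and H1f5 had 143 CPM against 219 CPM (knockdown label) and 154 CPM against 246 CPM (WT label).

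Doublet scores and depth moved with the C1q range. The highest scores were held by 24.8% of the upper and 14.5% of the lower range in the knockdown-labelled library, and by 23.1% and 10.9% in the WT-labelled library. Without those cells 46.7% (knockdown label) and 37.8% (WT label) of members were in the upper range. Before any limit on depth, 25.1% of upper-range Vcan-positive cells in the knockdown-labelled library and 23.2% in the WT-labelled library were cycling, against 13.7% and 15.7% of lower-range cells. With at least 15000 UMIs per cell the order turned round, to 32.9% (knockdown label) and 32.0% (WT label) of upper-range cells against 39.7% and 38.3% of lower-range cells. No order of the ranges in cycling can be read from shares that turn with depth.

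Across the cells of a library, thinned to 3000 UMIs, the rank correlation of C1qa was 0.73 with Apoe in the knockdown-labelled library (453 cells) and 0.71 in the WT-labelled library (440 cells), and -0.49 and -0.32 with Vcan. That of Fn1 with Vcan was 0.33 (knockdown label) and 0.23 (WT label). These are descriptions over cells that share a library and a depth.

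The third comparison was the study's own, between the labels, which the rule did not use. The share of cycling cells among Vcan-positive cells was 17.7% (453 of 2564, 16.2 to 19.2) in the knockdown-labelled library and 18.1% (440 of 2428, 16.6 to 19.7) in the WT-labelled library. The difference of -0.454 percentage points had an interval of -2.59 to 1.67. Among Vcan-zero cells 13.1% (knockdown label) and 11.2% (WT label) were cycling, a difference of 1.95 points (0.219 to 3.70). Vcan-positive cells were 45.2% of Csf1r-positive cells in the knockdown-labelled library and 41.6% in the WT-labelled library, 3.59 points apart (1.78 to 5.40).

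In the members' summed profiles, 37 of 8118 genes tested (0.456%) were at least 1.5-fold higher with the knockdown label and 121 (1.49%) at least 1.5-fold lower. In non-cycling Vcan-positive cells 30 of 7676 genes (0.391%) were higher and 65 (0.847%) lower. Of the 36 higher genes that were also tested in non-cycling cells 17 passed the fold there too, and of 109 lower genes 44. The counts of higher genes include genes of pancreatic digestive enzymes, which these phagocytes do not make. Such genes were 9 of the 37 in members and 11 of the 30 in non-cycling cells, where all 11 measured ones passed the fold. The 17 shared higher genes therefore include enzyme genes, and their number is not a count of shared phagocyte genes. No cell cycle gene of the S phase or G2 and M phase list passed the fold, over 42 and 49 measured genes with medians of 0.03 and -0.00067, where all genes had a median of -0.03. Of 20 measured replication-dependent histone genes 1 was higher and 3 were lower, with a median of 0.04, and many of these are close copies.

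Cebpb, the gene of a transcription factor of monocytes and macrophages, stood farthest lower. It had 258 CPM in members of the knockdown-labelled library and 932 CPM in those of the WT-labelled library, a ratio of 0.277 (0.265 to 0.289), and the ratio was 0.265 in non-cycling Vcan-positive and 0.228 in cycling Vcan-zero cells. Ppp1r14b, a phosphatase inhibitor gene, had 231 CPM with the knockdown label against 567 CPM with the WT label, with ratios of 0.407, 0.411 and 0.432 in the same 3 sets. Sec61g, Ube2m, Snx20 and Smap1 were also lower in all 3 sets, their ratios lying between 0.399 and 0.569. In size these ratios lay close together in dividing and non-dividing cells, a likeness that was not tested.

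Other lower genes were less even. Areg, the gene of the growth factor amphiregulin, had 33.9 CPM with the knockdown label against 70.5 CPM with the WT label in members, a ratio of 0.481, while the ratio was 0.959 in non-cycling Vcan-positive cells. Mucl1 had a ratio of 0.446 in members and 0.683 in non-cycling cells. Lyz1 had 182 CPM with the knockdown label against 506 CPM with the WT label in members, and its close copy Lyz2 had 11018 CPM against 9519 CPM, so that the split between them is uncertain. The histone gene H2ac24, with 141 CPM with the knockdown label against 304 CPM with the WT label, has close copies as well.

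The genes named as higher with the knockdown label were led by Ch25h. Ch25h, which makes the oxysterol 25-hydroxycholesterol, had 93.0 CPM in members of the knockdown-labelled library and 40.2 CPM in those of the WT-labelled library, a ratio of 2.31 (2.06 to 2.60). The chemokine gene Ccl12, a ligand of CCR2 in mice, had 2982 CPM with the knockdown label against 1732 CPM with the WT label, a ratio of 1.72, and a ratio of 1.54 in non-cycling and 1.19 in cycling Vcan-zero cells. Spp1, the osteopontin gene, had 4670 CPM with the knockdown label against 2959 CPM with the WT label, and Arg1, the arginase gene, 714 CPM against 440.5 CPM. Ccl12 differed between the C1q ranges, and within the upper range it had 5152 CPM with the knockdown label against 3392 CPM with the WT label and within the lower range 453 CPM against 369 CPM. The label ratio of Ccl12 was 1.52 in the upper and 1.23 in the lower range, both below the 1.72 of all members, of whom more were in the upper range with the knockdown label. Cxcl3 had 132 CPM with the knockdown label against 62.0 CPM with the WT label, and Chil3 had 358 CPM against 228 CPM. Aif1, Id1, Thbs1 and Cxcl14 completed the named higher genes, with ratios between 1.57 and 1.66. Of the 10 named higher genes only Ch25h, Cxcl3 and Ccl12 stayed past 1.5-fold under each of the 13 alternatives tried for them. Spp1, Arg1, Chil3, Cxcl14, Aif1, Id1 and Thbs1 fell short under at least 1, at lowest log2 differences between 0.47 and 0.57.

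**Figure D4:**
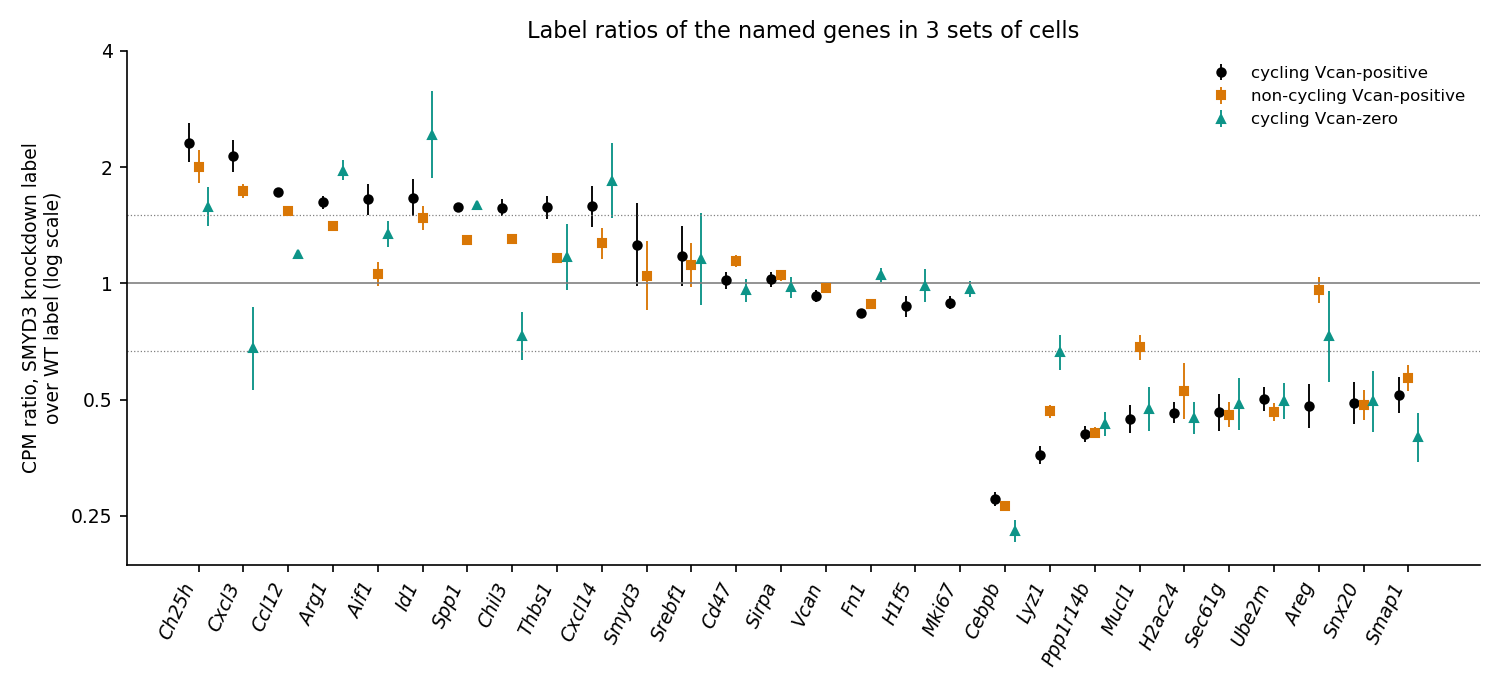
CPM ratio of the knockdown-labelled over the WT-labelled library (log axis) for the named genes in cycling Vcan-positive, non-cycling Vcan-positive and cycling Vcan-zero cells; bars are 95% intervals for counting error only and dotted lines 1.5-fold. Cebpb lies lowest in all 3 sets, at 0.277, 0.265 and 0.228, and Cxcl3 and Chil3 lie above 1 in both Vcan-positive sets and below 1 in cycling Vcan-zero cells.

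Srebf1, Cd47 and Sirpa, which bear on the study's title, were within 1.5-fold between the labels. Srebf1, which encodes the lipid synthesis regulator SREBP1, had 27.1 CPM in the knockdown-labelled library and 23.02 CPM in the WT-labelled library, a ratio of 1.18 (0.986 to 1.41). Cd47, the anti-phagocytic surface protein gene, had 287 CPM with the knockdown label against 282 CPM with the WT label, a ratio of 1.02 (0.967 to 1.07), and its receptor gene Sirpa 349 CPM against 341 CPM, also 1.02 (0.977 to 1.07). Of 30 measured SREBP targets none passed 1.5-fold, yet 27 lay above 0 on the log2 scale with the knockdown label and the list's median was 0.19, where 42.9% of all genes tested lay above 0 with a median of -0.03. This was not particular to SREBP targets in members. Nucleotide synthesis had 23 of 25 genes above 0 (median 0.13), and ribosome biogenesis and Myc targets 23 of 28 (0.19). Other lists lay below 0, such as myeloid transcription factors with 3 of 21 genes above it (-0.17). In non-cycling Vcan-positive cells 25 of 29 and in cycling Vcan-zero cells 27 of 29 SREBP targets lay above 0. The rule genes Vcan and Mki67 had ratios of 0.928 and 0.890, H1f5 0.871 and Fn1 0.836 (0.822 to 0.851).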

How the data were processed

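Droplet 3′ libraries of dissociated RENCA tumours, 1 per label, were analysed from the deposited matrix of UMI counts, which holds whole counts per gene and barcode for both libraries. The authors made these counts with Cell Ranger 7.1.0, per the file headers, on mm10, per the submitters' processing notes. Which annotation release was used is not stated in those sources. The library of each barcode was taken from the deposited barcode table, and symbols shared by more than 1 identifier were summed. Cells were chosen by UMI limits alone, so close paralogues and antisense genes share the uncertainty of the authors' counting.

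UMIs were summed per library and set of cells and divided by the set's total to give CPM. Ratios use CPM, and log2(CPM + 5) differences were counted past 1.5-fold among genes with at least 20 UMIs and 10 CPM on either side. With 1 library per label there was no test, p-value or standard error. Shares have exact binomial (Clopper-Pearson) intervals, ratios conditional binomial intervals and differences of shares Newcombe intervals, at 95%. Phases and correlations were computed after thinning each cell to 3000 UMIs (seed 1), except where the unthinned value is named. Shares of cells with a UMI, of Ly6c2 and of the pancreatic enzyme genes, are without thinning. Scrublet (scanpy 1.11.5) scored doublets in each library, but its own threshold marked 0 cells with the knockdown label and 1 with the WT label and was not usable, so cells with the highest scores, 0.8% per 1000 cells (723 with the knockdown label and 603 with the WT label), were kept in the main values and left out in an alternative. Promoter windows are RefSeq's (GRCm38.p6). The summing and fold count were checked on simulated counts. Python 3.11.15, numpy 2.4.6, scipy 1.17.1, pandas 2.3.3 and matplotlib 3.10.9 were used.

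Named were Smyd3, Srebf1, Cd47, Sirpa and the markers throughout, and in each comparison the 10 highest and the 10 lowest genes by log2(CPM + 5) difference among those past 1.5-fold (in both libraries, where sets of cells were compared) whose higher side reached 50 CPM and 30 UMIs. Antigen receptor, haemoglobin, ribosomal protein, mitochondrial, sex-linked, pancreatic enzyme and unnamed genes were left out, and up to 6 members of a described list could be named. The members, lists and rules were chosen with earlier results of these data known.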

Additional observations from a re-analysis of the deposited data

Results flagged for a closer look

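Chil3 and Cxcl3 differed between the labels in opposite directions in 2 sets of cycling cells. The ratio of Chil3 was 1.57 in cycling Vcan-positive cells and 0.730 in cycling Vcan-zero cells, and that of Cxcl3 was 2.13 and 0.679. In non-cycling Vcan-positive cells the ratios were 1.30 and 1.73. Within the members, Chil3 had a ratio of 1.00 in the upper and 1.95 in the lower C1q range, and Cxcl3 had 3.21 and 2.00. The difference between the sets was not tested, because there is 1 library per label.

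Genes of pancreatic digestive enzymes, which these phagocytes do not make, gave 2520 UMIs over 14 genes in cycling Vcan-positive cells of the knockdown-labelled library and 108 UMIs in those of the WT-labelled library. Without thinning, at least 1 such UMI was found in 435 of 453 members with the knockdown label (96.0%) and in 76 of 440 with the WT label (17.3%). Ctrb1, the chymotrypsinogen gene, had 485 UMIs with the knockdown label and 0 with the WT label, and Prss2, a trypsinogen gene, 357 and 0. The same held for non-cycling Vcan-positive cells, of which 92.8% (knockdown label) and 7.67% (WT label) had such a UMI. Of the 37 genes that were 1.5-fold higher with the knockdown label in the members, 9 were of this list, and none of them was named by rank in the report. The difference between the libraries was not tested.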

How the results depend on the processing

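No paired analysis was possible because each label has 1 library. Over alternatives to the UMI limits, doublets, thinning, weighting, filters, pseudocount and scaling, 0 called values of single genes changed direction, and of 838 single-gene values past 1.5-fold 823 stayed past it and 15 did not, among them Spp1, Arg1, Chil3, Cxcl14, Aif1, Id1 and Thbs1 between the labels. Counts followed depth and filters. Members thinned to 3000 UMIs before summing gave 188 genes higher and 369 lower with the knockdown label, in place of 37 and 121. A filter of 100 UMIs and 50 CPM left 13 higher and 47 lower between the labels, 248 and 61 for cycling against non-cycling cells, and 140 and 176 for Vcan-positive against Vcan-zero cells. No filter beyond 1 UMI gave 62 higher between the labels, and log2(CPM + 1) gave 189 lower. When every cell was thinned before the rule was applied, 22 members (knockdown label) and 32 (WT label) were left and the difference in G2 and M phase share was 11.1 points. With at least 15000 UMIs per cell, chosen after seeing the data, 71 genes were lower in cycling cells, and the share of cells in the upper C1q range, cycling minus non-cycling, was -4.55 points (knockdown label) and -1.69 points (WT label) in place of 23.5 points (knockdown label) and 16.0 points (WT label). Depth limits genes under about 10 CPM in the members.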
